A study of Mus musculus with 10 samples.

Results

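The genes of MHC class I antigen presentation and of the immunoproteasome were examined in obstructed and sham-operated mouse kidneys. They are the heavy chain genes H2-K1 and H2-D1, the light chain gene B2m, the transporter genes Tap1 and Tap2, Tapbp, the inducible proteasome subunits Psmb8, Psmb9 and Psmb10, and the class I regulator Nlrc5. The genes were chosen by name, and all 10 were found among the 13920 protein-coding genes of the deposited table, with 23 of its 26686 transcripts. RNA of whole kidneys from C57BL/6 mice was sequenced in 5 libraries of sham-operated and 5 of UUO mice. UUO, unilateral ureteral obstruction, is the closing of one ureter, which dams urine in that kidney, injures its tubules and leads to inflammation and scarring. The submitters give the left kidney as the organ taken and no drug treatment in either group. The labels name neither time after surgery nor age or sex. They do not say whether each library is another animal, so the p-values below refer to the variation among libraries, which may be technical. The comparison asked how the transcripts of this pathway differ between an obstructed and a sham-operated kidney.

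MHC class I molecules sit on nearly all nucleated cells and show CD8 T cells short peptides from proteins made inside the cell. Proteasomes cut those proteins, the TAP transporter carries the peptides into the endoplasmic reticulum, and tapasin holds the empty heavy chain and beta-2 microglobulin beside TAP until a peptide binds. Interferon-gamma induces the whole pathway and also the catalytic subunits Psmb8, Psmb9 and Psmb10, which take the places of Psmb5, Psmb6 and Psmb7 in newly built proteasomes, then called immunoproteasomes. Tubular epithelium, endothelium and leukocytes of the kidney can all express these genes. In RNA of a whole organ, more cells of a type and more RNA per cell cannot be told apart.

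Of the 10 genes, 7 lie on chromosome 17, most of them in the mouse MHC, in the GRCm38 coordinates of the table. H2-K1 spans 33996017 to 34000333 on the minus strand and H2-D1 35262730 to 35267499 on the plus strand. Between them lie Psmb9 (34181988 to 34187764, minus strand), Tap1 (34187553 to 34197225, plus), Psmb8 (34197721 to 34201454, plus) and Tap2 (34203527 to 34216321, plus), and Tapbp lies outside them (33915899 to 33929288, plus). B2m is on chromosome 2 (122147686 to 122153083, plus), and Psmb10 (105935735 to 105938444, minus) and Nlrc5 (94434356 to 94527272, plus) are on chromosome 8. Tap1 and Psmb9 overlap at their heads by 212 bases on opposite strands. B2m lies within the span of Patl2 on the other strand, and Tapbp shares 3422 bases with Zbtb22 on the same strand. The library kit marks strand, but the sources used here do not say whether the quantification used it.

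The stretches before the start sites of both heavy chain genes, B2m and Tap1 are shown because class I promoters share short elements that interferon-responsive and class I-specific factors bind. They are RefSeq sequences of GRCm38.p6, 250 bases that end just before the start site, or, for Tap1, the 225 bases between the start sites of Psmb9 and Tap1. Capitals mark matches on either strand to 5 motifs. These were GAAANNGAA for IRF factors, TTCNNNGAA for STAT factors, GGGNNTTCC for NF-kappaB, TGACG for the X2 element and CCAAT for the Y box, which reads ATTGG on the other strand.
H2-K1, chr17:34000334-34000583, minus strand: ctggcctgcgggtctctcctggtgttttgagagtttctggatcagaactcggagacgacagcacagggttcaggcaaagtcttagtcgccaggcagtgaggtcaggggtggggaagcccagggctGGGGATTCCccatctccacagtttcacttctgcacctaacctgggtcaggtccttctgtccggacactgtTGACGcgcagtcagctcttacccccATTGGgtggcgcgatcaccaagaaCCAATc
H2-D1, chr17:35262844-35263093, plus strand: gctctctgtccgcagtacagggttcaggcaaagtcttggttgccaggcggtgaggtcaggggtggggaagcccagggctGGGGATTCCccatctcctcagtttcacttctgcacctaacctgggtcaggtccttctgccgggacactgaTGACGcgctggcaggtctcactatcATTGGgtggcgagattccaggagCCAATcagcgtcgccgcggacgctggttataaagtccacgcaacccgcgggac
B2m, chr2:122147437-122147686, plus strand: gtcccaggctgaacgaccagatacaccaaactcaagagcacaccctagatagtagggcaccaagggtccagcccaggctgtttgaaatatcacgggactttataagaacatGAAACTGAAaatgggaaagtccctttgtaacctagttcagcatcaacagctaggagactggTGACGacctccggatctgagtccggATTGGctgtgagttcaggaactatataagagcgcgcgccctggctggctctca
Tap1, chr17:34187331-34187555, plus strand: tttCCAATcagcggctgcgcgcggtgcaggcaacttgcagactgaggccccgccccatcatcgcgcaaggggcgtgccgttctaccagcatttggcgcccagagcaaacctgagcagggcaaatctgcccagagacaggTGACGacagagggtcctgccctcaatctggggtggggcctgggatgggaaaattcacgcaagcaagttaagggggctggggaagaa
In these runs the NF-kappaB match stood in H2-K1 and H2-D1, and the IRF match, 139 bases before the start site, in B2m. Aligned on the NF-kappaB match, the printed runs of H2-K1 and H2-D1 were identical at 169 of 204 bases, or 82.8%. In H2-K1, H2-D1 and B2m TGACG was followed on the same strand by ATTGG, with 25 bases from the first base of one to the first base of the other. That spacing occurred in 31 of 32851 promoter windows of 250 bases before to 50 after a start site (0.0944%). It was searched for after the sequences had been read.

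In these windows 8 of the 10 genes had an entry, and Tap2 and Nlrc5 had none. TGACG was found in 5 of the 8 (B2m, H2-D1, H2-K1, Psmb9 and Tap1) and in 20.8% of all windows. The Y box was found in those 5 and in Tapbp, against 37.4% of all windows. The IRF, STAT and NF-kappaB motifs occurred in 8.56%, 8.30% and 5.82% of all windows, and among the 8 in B2m, in Psmb8 and in both heavy chain genes. The windows of Psmb9 and Tap1 share 275 bases, so a match in one is largely a match in the other. A match is a description of the letters and no evidence of binding. The lack of a match is no evidence that an element is absent, since each motif was searched in a single form.

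All 10 genes were higher in UUO than in sham kidneys, by 3.78-fold for Tapbp to 11.4-fold for Nlrc5, and for each of them every UUO library lay above every sham library. The values are FPKM, fragments scaled by the length of the gene and the size of the library,, tested with limma on log2(FPKM + 1) over 13202 genes that reached 0.5 FPKM in at least 5 libraries. A gene was called at a Benjamini-Hochberg adjusted p below 0.05. The comparison moved much of the transcriptome: 58.5% of all genes tested were called higher and 16.1% lower, and 18.7% were called with at least a doubling on that scale. In 47.5% of genes every UUO library lay above every sham library. A call or a separation alone is therefore common in these data. Their log2 differences had a median of 2.04 beside 0.40 for all genes and stood between the 93.5th and the 98.4th percentile of all genes tested. All 10 reached a doubling. Median-of-ratios scaling moved the median of all genes from 0.40 to 0.002 and the share of genes called higher to 34.1%. It left the 10 genes called higher, with log2 differences of 1.38 (Tapbp) to 2.52 (Psmb8). Gene values summed to 327994 to 343018 FPKM in sham libraries and to 282172 to 302519 FPKM in UUO libraries. No read counts were given, and only in sham libraries did a clearly recurring low value allow the depth to be estimated, at about 11100000 to 14100000 fragments.

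**Figure D1:**
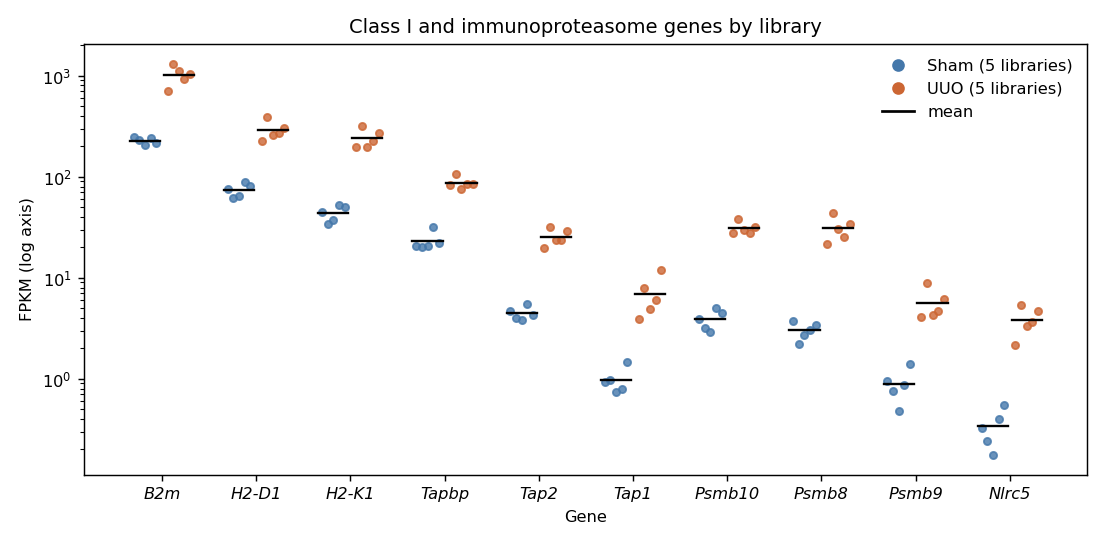
FPKM (log axis) of the 10 genes in each of 5 sham and 5 UUO libraries, with the group means as lines. For every gene the 5 UUO points lie above the 5 sham points; B2m has the highest values and Nlrc5 the lowest.

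The chains of the class I molecule rose together. H2-K1, the heavy chain of the K locus, stood in Sham 1 to Sham 5 at 44.7, 34.4, 37.2, 52.0 and 49.9 FPKM and in UUO 1 to UUO 5 at 197, 316, 197, 226 and 271. UUO 2 was the highest of the UUO libraries, and UUO 1 and UUO 3 were lowest and nearly equal. The means were 43.6 ± 7.69 and 241 ± 51.4 FPKM (SD, n = 5 each), a 5.53-fold rise with a log2 difference of 2.43 (SE 0.16; limma, adjusted p = 3.74e-07). H2-D1, the heavy chain of the D locus, stood at 76.4, 62.1, 64.0, 88.8 and 80.3 FPKM in sham and at 228, 386, 259, 273 and 304 in UUO libraries. Sham 4 was the highest sham library for both heavy chains, and its values stayed far under the lowest UUO value. H2-D1 rose 3.90-fold, with a log2 difference of 1.94 (SE 0.15; limma, adjusted p = 1.05e-06).

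B2m, the light chain shared by all class I molecules, was the most abundant of the 10, at 247, 229, 204, 241 and 213 FPKM in sham and 713, 1319, 1101, 918 and 1050 in UUO libraries. Its sham values were the tightest of the 10 genes, with a coefficient of variation of 7.89%, and its UUO values spread by 21.99%. It rose 4.50-fold, from 227 ± 17.9 to 1020 ± 224 FPKM, a log2 difference of 2.14 (SE 0.15; limma, adjusted p = 5.88e-07). As B2m has 1 listed transcript and Patl2 lies across it on the other strand, its value depends on how antisense reads were treated.

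No change in the proportion of heavy chains to light chain was detected. The sum of H2-K1 and H2-D1 over B2m averaged 0.520 ± 0.0765 in sham and 0.527 ± 0.0674 in UUO libraries (n = 5 each), with overlapping groups. The log2 difference was 0.02 (SE 0.13), with a 95% interval from -0.27 to 0.32 by inversion of the two-sided exact permutation test, whose p was 0.913. A change of this ratio by more than 1.25-fold upward or below 0.832-fold is outside that interval. Within the heavy chains H2-K1 gained on H2-D1: their ratio ran from 0.554 to 0.621 in sham and from 0.763 to 0.889 in UUO libraries. This ratio was taken after the values had been seen and carries no test. Classical and other class I genes are closely related in sequence, and how reads that fit several of them were divided is not known, so the split between H2-K1 and H2-D1 is uncertain.

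Genes of peptide transport and loading followed. Tap1, a subunit of the peptide transporter, stood at 0.923, 0.974, 0.745, 0.786 and 1.47 FPKM in sham and at 3.95, 7.88, 4.95, 5.96 and 11.8 in UUO libraries. Its highest values were in Sham 5 and UUO 5, and it was the only one of the 10 genes not highest in UUO 2 among the UUO libraries. It rose 7.06-fold, with a log2 difference of 1.93 (SE 0.23; limma, adjusted p = 2.06e-05). The fold was 5.81 without UUO 5 and 8.06 without Sham 5. Tap2, the partner subunit, stood at 4.72, 3.98, 3.80, 5.53 and 4.29 FPKM in sham and at 19.7, 31.6, 23.8, 23.8 and 29.0 in UUO libraries. Its groups lay far apart, and it rose 5.74-fold, a log2 difference of 2.27 (SE 0.13; limma, adjusted p = 1.67e-07).

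Tapbp encodes tapasin, which ties the heavy chain to TAP. It stood at 20.7, 20.2, 20.6, 31.5 and 22.03 FPKM in sham and at 82.6, 107, 75.9, 85.4 and 84.0 in UUO libraries. Sham 4 stood apart from the other 4 sham libraries, which lay within 20.2 to 22.03. Sham 4 also stood apart in cell type markers. The 6 endothelial markers summed to 62.5 FPKM there and to 27.6 to 33.6 in the other sham libraries, with 5 of the 6 highest in Sham 4 and Egfl7 within the range of the others. The 3 collecting duct markers summed to 532 against 142 to 165. The 3 of the thick ascending limb summed to 1242 against 672 to 904, although Cldn16 was highest in Sham 2. The 6 of the proximal tubule summed to 964 against 1254 to 1406. Macrophage and monocyte markers summed to 31.8 against 19.1 to 23.5 and leukocyte markers to 5.66 against 4.14 to 5.18. The low sums of T and NK cell markers (1.72 against 0.834 to 1.54) and B cell markers (1.42 against 0.261 to 0.879) were also highest there. Dendritic cell and podocyte sums lay within the range of the other sham libraries. The part of these markers in the Tapbp value was not tested. Tapbp rose 3.78-fold, the smallest fold of the 10, with a log2 difference of 1.88 (SE 0.13; limma, adjusted p = 5.59e-07), and 4.16-fold without Sham 4.

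The inducible proteasome subunits had some of the largest rises. Psmb8, which carries the chymotrypsin-like site of the immunoproteasome, stood at 3.75, 2.22, 2.71, 3.06 and 3.42 FPKM in sham and at 21.7, 43.7, 30.3, 25.3 and 34.2 in UUO libraries. The lowest UUO value was several times the highest sham value. It rose 10.2-fold, with the largest log2 difference of the 10 genes at 2.96 (SE 0.18; limma, adjusted p = 2.03e-07). Psmb10, which replaces the trypsin-like subunit, stood at 3.94, 3.20, 2.88, 5.04 and 4.43 FPKM in sham and at 27.5, 38.4, 29.5, 27.6 and 31.5 in UUO libraries. Apart from UUO 2 its UUO values were close together. It rose 7.92-fold, a log2 difference of 2.71 (SE 0.14; limma, adjusted p = 7.05e-08).

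Psmb9, which replaces the caspase-like subunit, was lower: 0.954, 0.756, 0.482, 0.861 and 1.42 FPKM in sham and 4.12, 8.93, 4.26, 4.73 and 6.19 in UUO libraries. Sham 3 stood lowest and UUO 2 highest, and 4 of the 5 sham libraries reached 0.5 FPKM. It rose 6.32-fold, a log2 difference of 1.78 (SE 0.19; limma, adjusted p = 1.08e-05). Psmb9 and Tap1 leave from the same stretch of DNA in opposite directions. Both had their highest sham value in Sham 5, as did Nlrc5, which lies on chromosome 8. In UUO libraries the order of Psmb9 and Tap1 differed, with Psmb9 highest in UUO 2 and Tap1 in UUO 5.

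Nlrc5, which acts in the nucleus on class I promoters, was the scarcest, at 0.328, 0.242, 0.175, 0.402 and 0.545 FPKM in sham and 2.14, 5.37, 3.33, 3.68 and 4.71 in UUO libraries. In sham only Sham 5 reached 0.5 FPKM, so Nlrc5 entered the test through its UUO values, and a gene that passes that way is bound to lie higher in UUO. The means were 0.338 ± 0.144 and 3.85 ± 1.25 FPKM, a ratio of 11.4, which was the largest of the 10. Its log2 difference was 1.82 (SE 0.17; limma, adjusted p = 4.48e-06), smaller than its fold because 1 was added before the logarithm. At the estimated sham depth its sham values rest on about 21 to 53 fragments per library, those of Tap1 on 48 to 92 and those of B2m on 2105 to 2933, with counting error alone in view.

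Levels of different genes are compared as the sum of their listed transcripts in FPKM, since the gene value divides by the length of all annotated exons. On that scale B2m averaged 227 in sham and 1020 in UUO libraries, H2-D1 94.1 and 372, H2-K1 69.9 and 372, and Tapbp 25.6 and 97.0. The heavy chains were thus level with each other in UUO libraries, within an SD of 91.2 for H2-K1 and 77.3 for H2-D1. Psmb8 followed at 4.58 and 48.3, then Psmb10 at 3.77 and 29.9, Tap2 at 3.88 and 13.5, Psmb9 at 2.17 and 11.97, Tap1 at 0.988 and 10.4, and Nlrc5 at 0.462 and 5.11. In sham kidneys Psmb8, Tap2 and Psmb10 did not differ beyond their spread. In UUO kidneys neither did Tap2, Psmb9 and Tap1, with SDs of 5.92, 5.51 and 8.26. The Tap2 level is a lower limit, since its only listed transcript held 80.5% of the gene signal in sham and 47.1% in UUO libraries. Listed transcripts held 46.1% and 64.6% for Tap1, 73.3% and 73.9% for Psmb10, and 79.2% and 88.6% for Nlrc5. For H2-K1, Tapbp, Psmb8 and Psmb9 this part was not measured. The places of all these genes in the order are thus uncertain.

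Against the constitutive subunits the inducible ones gained in every pair. Psmb5 and its replacement Psmb8 gave a ratio of gene FPKM that rose from 0.0222 ± 0.00522 in sham to 0.237 ± 0.0811 in UUO libraries (n = 5 each). The log2 difference of 3.38 (SE 0.28) had a 95% permutation interval of 2.68 to 4.04. Psmb9 over Psmb6 rose from 0.0124 ± 0.00410 to 0.0691 ± 0.0251, a log2 difference of 2.48 (SE 0.32; interval 1.78 to 3.27). Psmb10 over Psmb7 rose from 0.0838 ± 0.0243 to 0.944 ± 0.131, a log2 difference of 3.53 (SE 0.20; interval 3.05 to 4.02). In each pair every UUO library lay above every sham library, and the two-sided exact permutation test gave p = 0.00794, also after adjustment over the 3 pairs, the smallest p that 252 relabellings allow. A ratio within a library does not move with the scaling of that library.

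**Figure D2:**
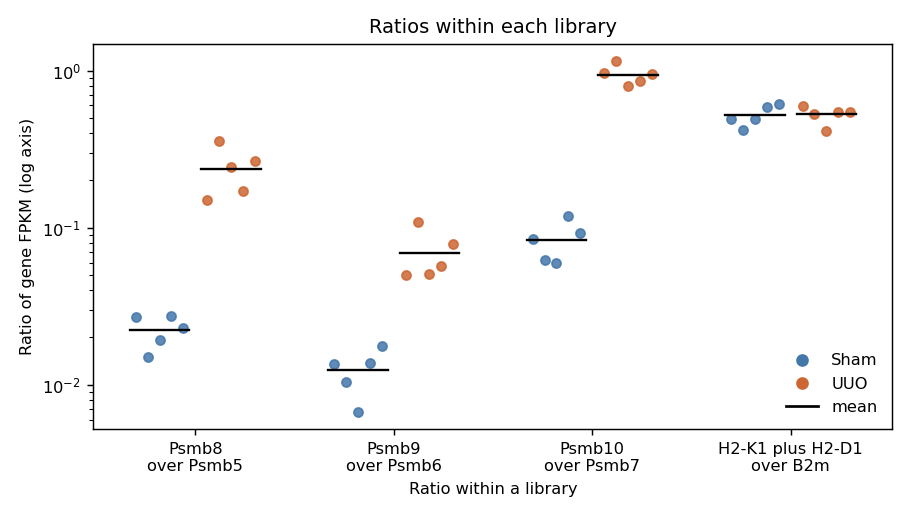
Ratios of gene FPKM within each library (log axis) for the 3 pairs of inducible over constitutive subunit and for the heavy chains over B2m, in 5 sham and 5 UUO libraries with their means. The groups are apart in the 3 subunit pairs and overlap in the ratio of heavy chains to B2m, whose means are 0.520 and 0.527.

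As a share of the pair in listed transcripts, which takes account of length, Psmb8 averaged 3.20% of Psmb8 and Psmb5 in sham and 26.3% in UUO libraries, where it ran from 18.2% in UUO 1 to 36.0% in UUO 2. Psmb10 averaged 2.71% of its pair in sham and 23.7% in UUO libraries. Psmb9 stayed the smallest part, with 1.36% and 6.31%. In UUO kidneys the listed transcripts of the constitutive subunits thus still outnumbered those of the inducible ones in all 3 pairs. The only listed Psmb10 transcript held 73.3% of its gene signal in sham and 73.9% in UUO libraries. For the other subunits of the pairs this part was not measured, so the pair shares are approximate. They are shares of RNA and not of assembled proteasomes.

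The constitutive partners moved less than the inducible subunits on the deposited scale. Psmb5 averaged 138 ± 14.9 FPKM in sham and 134 ± 11.6 in UUO, with overlapping groups (log2 difference -0.04; limma, adjusted p = 0.695). Psmb6 averaged 71.5 ± 6.06 and 82.0 ± 2.04, a log2 difference of 0.20 (limma, adjusted p = 0.0240) that was lost without Sham 1 (0.20, adjusted p = 0.0511). Psmb7 fell from 47.1 ± 3.20 to 32.8 ± 3.08 FPKM (log2 difference -0.51; limma, adjusted p = 1.62e-04). With median-of-ratios scaling Psmb5 was lower at -0.55, Psmb6 was lower at -0.31 and Psmb7 was lower at -1.01 (limma, adjusted p = 0.00361, 0.0171 and 9.29e-06), so the direction of Psmb6 depends on the scaling.

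**Figure D3:**
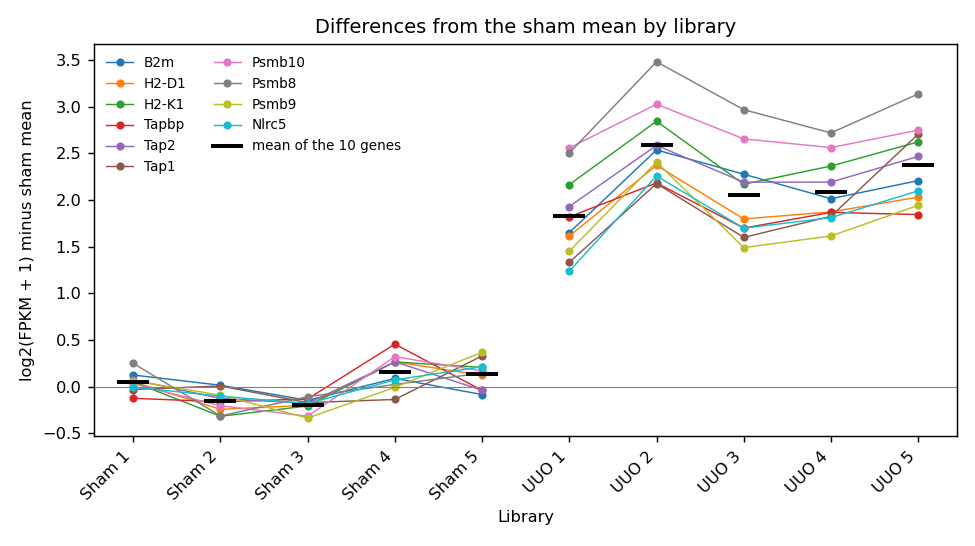
log2(FPKM + 1) minus the sham mean for each of the 10 genes in every library, with the mean of the 10 genes as a bar. Lines join the libraries of a gene for reading only; in the UUO libraries most genes are lowest in UUO 1 and highest in UUO 2.

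UUO 2 was the highest UUO library for 9 of the 10 genes, all but Tap1, and UUO 1 the lowest for 9, all but Tapbp. Among the 7727 genes called higher, UUO 2 was the highest UUO library in 32.0% and UUO 1 the lowest in 15.1%. From low to high the mean of the 10 genes ran UUO 1, UUO 3, UUO 4, UUO 5, UUO 2. With 5 libraries no correlation is given. Irf1, an activator of class I promoters, did not follow this order, with its highest UUO values of 19.5 and 20.6 FPKM in UUO 3 and UUO 4. The leukocyte marker Ptprc (CD45) had its highest UUO value in UUO 2 as well, at 6.96 FPKM, but its lowest in UUO 5, at 3.83.

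By a rule on the whole profile over the 10 libraries, the tested genes nearest to the mean of the 10 were Gbp7, Col4a2, Lsp1, Prss27 and Parp14. The measure was the root mean square difference of log2(FPKM + 1) centred on the sham mean, which was 0.0814 for Gbp7, 0.124 for Col4a2, 0.150 for Lsp1, 0.155 for Prss27 and 0.166 for Parp14. Gbp7, an interferon-inducible guanylate-binding protein, averaged 2.57 FPKM in sham and 14.7 in UUO libraries. Col4a2, a collagen chain of basement membranes, averaged 14.8 and 72.9, and Parp14, an ADP-ribosyltransferase, 1.57 and 11.5. Lsp1, a leukocyte actin-binding protein, averaged 0.658 and 6.96 FPKM. Prss27 averaged 0.0326 and 4.29 FPKM, a ratio of 131. It reached 0.5 FPKM in no sham library, so it was tested only through its UUO values. Its log2 difference of 2.31 became 5.11 with a pseudocount of 0.1. Genes that moved by a like amount on the scale of log2(FPKM + 1) are near on this measure whatever their role. A low gene can be near with a far larger ratio.

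Transcript shares were examined for the 7 genes with more than 1 listed transcript. Of these, 5 genes with 8 transcripts met the minimum level, and 0 transcripts were called by limma on transformed shares, where 0.75% of all transcripts tested were called, with at least 10 percentage points and an adjusted p below 0.05. At an unadjusted p below 0.05 the count was also 0, and the largest share difference was 5.08 points. H2-K1-201 held 87.9% of the listed H2-K1 signal in sham and 88.1% in UUO libraries, and H2-D1-202 held 96.1% and 94.4%. Psmb9-204 held 85.6% and 90.6%. Among listed transcripts the rise of these genes thus lay mostly in their main transcript. For H2-K1 and Psmb9 the signal outside listed transcripts was not measured.

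The transcripts of the TAP genes were less steady. Tap1-201 was listed at 0 in Sham 1 to Sham 4, in UUO 1 and in UUO 3, and stood at 1.19 FPKM in Sham 5, 9.13 in UUO 2, 9.41 in UUO 4 and 21.1 in UUO 5. Tap1-206 was listed in all 10 libraries, from 0.183 FPKM in Sham 5 to 4.46 in UUO 3. Neither was in the share test. The gene value equalled the length-weighted sum of transcripts over the length of all exons in the 561 genes where every annotated transcript was listed (5124 of 5124 values above 1 FPKM within 1%). By that rule the listed transcripts accounted for 46.1% of the Tap1 signal in sham and 64.6% in UUO libraries. For Tap2 they accounted for 96.5, 97.5, 97.1, 61.6 and 49.9% in Sham 1 to Sham 5 and 34.5, 38.6, 44.6, 44.5 and 73.2% in UUO 1 to UUO 5. The only listed Tap2 transcript therefore rose 3.48-fold in its mean, where the gene value rose 5.74-fold. The remaining signal belongs to annotated transcripts that were not analysed here. For H2-D1 and B2m the listed transcripts held at least 99.7% of the signal in every library. These shares were worked out after the values had been seen and carry no test.

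**Figure D4:**
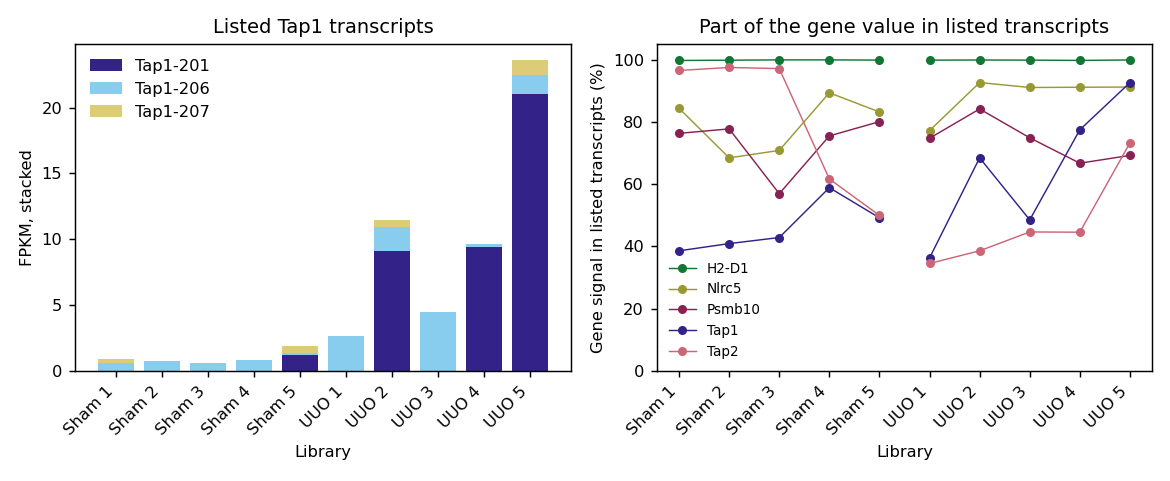
Left, FPKM of the listed Tap1 transcripts in each library, stacked. Right, the percentage of the gene signal held by listed transcripts for 5 genes, with lines joining libraries for reading only; H2-D1 stays near 99.8% while Tap1 and Tap2 range widely within both groups.

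Around these genes the rest of the pathway was uneven. The counts in this and the next paragraphs stand beside 58.5% higher and 16.1% lower among all genes tested, with a median of 0.40. With median-of-ratios scaling 34.1% of all genes were higher, with a median of 0.002. Of 9 proteasome activators and assembly chaperones, 6 were higher and 1 was lower, with a median log2 difference of 0.36, and 4 were higher and 4 lower with median-of-ratios scaling, where the median was -0.13. The activator subunits Psme1 and Psme2, which form the interferon-inducible PA28 cap, rose from 15.8 ± 1.39 to 48.7 ± 5.36 FPKM and from 22.1 ± 2.46 to 63.2 ± 10.4. Their log2 differences were 1.56 (SE 0.09) and 1.46 (SE 0.12; limma, adjusted p = 1.48e-07 and 1.44e-06), and 1.07 and 0.97 with median-of-ratios scaling. Psme4, which forms a nuclear activator, fell from 23.4 ± 1.18 to 15.5 ± 1.75 FPKM (log2 difference -0.57; limma, adjusted p = 8.23e-05). Psme3, the nuclear relative of Psme1, stood at 28.1 and 27.2 FPKM and was not called, but was lower by median-of-ratios scaling (-0.54; limma, adjusted p = 1.23e-04).

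The 14 subunits of the constitutive proteasome core were called higher in 9 cases and lower in 1, beside 58.5% higher among all genes. Their median log2 difference was 0.22, below the 0.40 of all genes. With median-of-ratios scaling 0 were higher and 9 lower, and the median was -0.29. Under quantile normalization 9 were higher and 1 lower, with a median of 0.33 beside -0.07 for all genes. Rescaled to equal sums, 12 were higher and 1 lower, with a median of 0.41 beside 0.55. Their direction thus turned with median-of-ratios scaling and not with the other scalings. Under the values as deposited the largest was Psma5, from 48.5 ± 2.76 to 75.1 ± 4.22 FPKM (log2 difference 0.62), and none of the 14 doubled. The inducible subunits were higher under every scaling.

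Of 10 chaperones and trimming enzymes of the endoplasmic reticulum, 4 were higher and 0 lower, beside 58.5% higher among all genes. Their median was 0.25, below the 0.40 of all genes. With median-of-ratios scaling 2 were higher and 5 lower. Under quantile normalization 6 were higher and 1 lower, and rescaled to equal sums 8 were higher and 0 lower. Higher on the deposited scale and also with median-of-ratios scaling were Tapbpl and Erap1. Tapbpl, a tapasin relative that edits peptides, rose from 6.16 ± 0.729 to 20.1 ± 4.10 FPKM (log2 difference 1.54, limma adjusted p = 1.78e-06). Erap1, the aminopeptidase that trims peptides in the endoplasmic reticulum, rose from 5.77 ± 0.823 to 13.9 ± 2.21 (1.14, limma adjusted p = 6.62e-06). The general chaperones Calr and Canx, at 200 and 119 FPKM in sham and 230 and 121 in UUO, were not called, and were lower with median-of-ratios scaling (-0.33 and -0.48; limma, adjusted p = 0.0491 and 1.18e-04). Pdia3, a thiol oxidoreductase of the loading complex, was higher at 232 against 169 FPKM (log2 difference 0.45), which became -0.05 with median-of-ratios scaling (limma, adjusted p = 0.646). Of 7 tested peptidases of the cytosol, 3 were higher and 3 lower, and 0 higher and 4 lower with median-of-ratios scaling. Lap3, leucine aminopeptidase, fell from a mean of 188 FPKM (146 to 205) to 83.7 (70.6 to 99.6) (log2 difference -1.16; limma, adjusted p = 1.46e-05).

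Of 16 tested genes for other class I and class I-like heavy chains, 13 were higher and 1 lower, beside 58.5% higher among all genes. Their median log2 difference was 1.17, and 11 were higher and 3 lower with median-of-ratios scaling. H2-M2 rose the most, from 0.0490 ± 0.0455 to 5.57 ± 1.72 FPKM (log2 difference 2.61, limma adjusted p = 1.56e-07), and was among the genes tested only through their UUO values. In sham, H2-Q10 reached 0.5 FPKM in 1 library and Procr in 2, so both also entered the test through their UUO values. H2-Q4 rose from 9.55 ± 0.936 to 63.8 ± 16.7 FPKM (2.58; limma, adjusted p = 3.10e-07) and H2-M3, which binds formylated peptides, from 1.28 ± 0.467 to 10.7 ± 2.42 (2.36; limma, adjusted p = 6.03e-07). H2-T23 (Qa-1) rose from 37.7 ± 4.49 to 56.1 ± 11.1 FPKM (0.55; limma, adjusted p = 0.003996), but by 0.05 with median-of-ratios scaling (limma, adjusted p = 0.809). H2-T22, a ligand of gamma-delta T cells, stood at 27.7 and 28.8 FPKM and was not called, but was lower with median-of-ratios scaling (-0.45; limma, adjusted p = 0.0108). Azgp1, a soluble class I-like protein, fell from 55.5 ± 15.6 to 9.51 ± 6.48 FPKM (-2.68; limma, adjusted p = 3.26e-04). H2-Q4, H2-M2, H2-M3 and H2-T22 were named after their values had been seen. Division of reads between these close relatives is uncertain too.

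**Figure D5:**
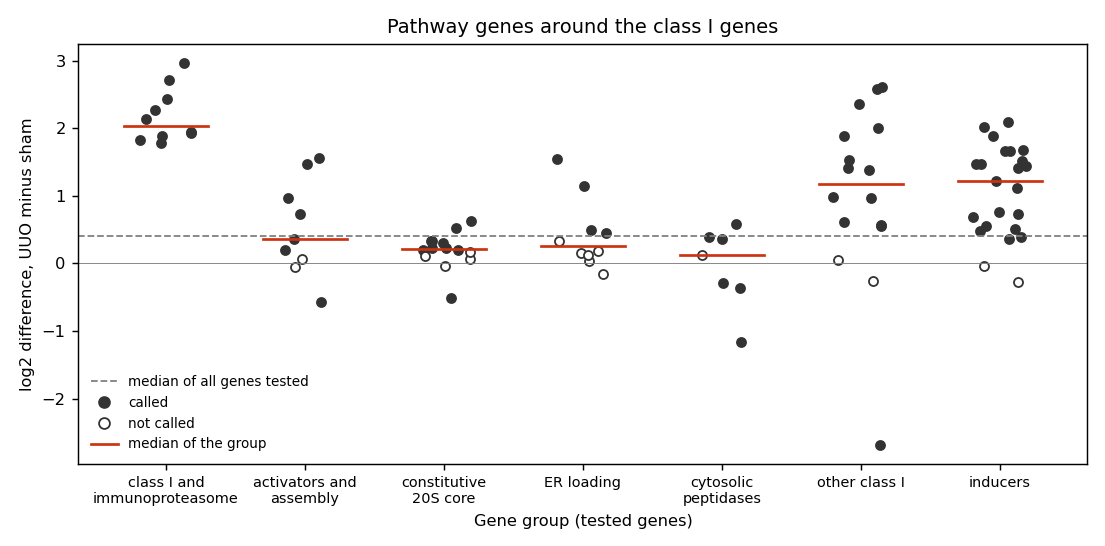
log2 difference, UUO minus sham, of each tested gene in 7 groups; filled points were called and open points were not, the red line is the median of the group and the dashed line the median of all genes tested (0.40). The 10 class I and immunoproteasome genes lie between 1.78 and 2.96, and the constitutive core lies near 0.

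Of 23 tested receptors, kinases and transcription factors that act on class I promoters, 21 were higher and 0 lower, beside 58.5% higher among all genes. Their median was 1.22, and 15 were higher and 1 lower with median-of-ratios scaling. The interferon-gamma receptor chains were among the largest: Ifngr1 rose from 11.7 ± 1.60 to 50.8 ± 9.37 FPKM (log2 difference 2.02; limma, adjusted p = 3.46e-07) and Ifngr2 from 6.69 ± 0.421 to 32.1 ± 5.37 (2.09; limma, adjusted p = 1.06e-07). Irf1 rose from 3.33 ± 0.661 to 13.8 ± 6.33 FPKM. Ciita, the class II counterpart of Nlrc5, rose from 0.472 ± 0.0756 to 4.89 ± 2.99, with its highest value of 9.96 in UUO 2. In sham, Ciita reached 0.5 FPKM in 2 libraries and Socs1 in 1. Both are among the 21 and entered the test through their UUO values, like Nlrc5. The Y-box subunit Nfyc (15.3 and 14.9 FPKM) and Creb1 (2.34 and 2.36) were not called, and Nfyc was lower with median-of-ratios scaling (-0.52; limma, adjusted p = 1.93e-04). Ifng and Ifnb1 were not analysed here. Of 12 receptors and effectors of the cells that read class I, 5 were tested and higher, and 2 of the 5 were higher under quantile normalization. In sham, 3 of them reached 0.5 FPKM in no library, and Cd8a and Gzma in 1 library each. All 5 thus entered the test through their UUO values, like Nlrc5, and were bound to lie higher. Pirb, an inhibitory receptor for class I on myeloid and B cells, rose from 0.194 ± 0.0779 to 6.71 ± 2.42 FPKM, and Cd8a, the co-receptor of cytotoxic T cells, from 0.344 ± 0.147 to 1.04 ± 0.237.

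Cell type markers moved in both directions. All 5 leukocyte markers were higher, with a summed level of 4.14 to 5.66 FPKM in sham and 70.3 to 116 in UUO libraries. Ptprc, one of them, was below 0.5 FPKM in all sham libraries and was tested only through its UUO values. The 5 tested macrophage and monocyte markers summed to 19.1 to 31.8 and 436 to 969 FPKM. The UUO sums were mostly Lyz2, whose mean rose from 8.31 to 568 FPKM, while that of Csf1r rose from 11.2 to 23.2. The T and NK cell markers summed to 0.834 to 1.72 and 7.66 to 21.3 FPKM. Of these 7 markers 6 were tested and higher. In sham, 4 of them (Cd3d, Cd3g, Cd4 and Lck) reached 0.5 FPKM in no library, and Cd8a and Nkg7 in 1 library each. All 6 were thus tested through their UUO values. Of 6 endothelial markers 3 were higher, with sums of 27.6 to 62.5 and 55.3 to 78.5, and all 6 proximal tubule markers were lower, with 964 to 1406 and 104 to 674 FPKM. None of these markers was at 0 in all sham libraries, and the kidney label is met by the tubular genes in all 10. Ptprc averaged 0.293 ± 0.0192 FPKM in sham and 4.85 ± 1.24 in UUO, a ratio of 16.6, above that of any of the 10 genes. The ratio of a gene to Ptprc was lower in every UUO library than in every sham library for 6 of them (H2-K1, H2-D1, B2m, Tap2, Tapbp and Psmb10). For B2m it ran from 643 to 898 in sham and from 151 to 274 in UUO libraries. For Tap1, Psmb8, Psmb9 and Nlrc5 the groups overlapped. The part of these cells in the rise of the class I genes was not tested.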

How the data were processed

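Total RNA of whole kidneys was sequenced from a stranded library kit, per the labels' protocols. The authors deposited normalized values of genes and of transcripts, which were taken as FPKM although no header names a unit. Per the submitters' processing notes they used cutadapt, StringTie and HISAT2 with GRCm38 as the build. The sources used here give no versions, annotation release, listing threshold or use of strand. Groups and columns followed the sample titles. An emptied line in either table was not analysed here, and 14 symbols shared by more than 1 gene were skipped.

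Genes that reached 0.5 FPKM in 5 or more libraries were analysed on log2(FPKM + 1) with limma 3.58.1 (R 4.3.3; lmFit, eBayes with trend), adjusted over 13202 genes by Benjamini-Hochberg. 718 genes were not tested. Log2 differences understate the change of low genes. Ratios were tested by exact permutation, and transcript shares by limma on arcsine square-root values, for transcripts averaging 5% or more of a gene whose listed transcripts summed to 1 FPKM or more per library. Exon lengths and overlaps came from GENCODE vM21 and promoters from RefSeq (GRCm38.p6). Python 3.11.15, numpy 2.4.6, pandas 2.3.3 and matplotlib 3.10.9 made ratios and figures. The fits were tested on simulated data.

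The 10 genes, the 7 pathway lists, the markers and the tests were chosen with earlier results of these data known. Named genes were the 10, Psmb5, Psmb6, Psmb7, Psme1, Psme2, Ptprc, the 5 genes nearest in profile, and from each pathway list the called gene with the largest log2 difference, the one with the highest mean and the largest in the rarer direction. Genes named beyond this, such as Irf1, Ciita, Erap1 and those of the class I family, were chosen after their values were seen. Alternatives were another pseudocount (0.1), another filter (1 FPKM or none), 3 scalings, a block by replicate number and leaving out each library. Some results are not reported here.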

Additional observations from a re-analysis of the deposited data

Results flagged for a closer look

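Tapbp had 1 sham library far from the others: Sham 4 stood at 31.5 FPKM and the other 4 between 20.2 and 22.03. The gap to the nearest library was 0.835 of the whole range of the group. Without Sham 4 the sham mean was 20.9 ± 0.804 FPKM (SD of 4 libraries). Of 28 groups looked at this was the only one that stood out, and chance marks about 1 in 20.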

How the results depend on the processing

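The 10 genes were called higher in all 170 combinations of gene and alternative. The lowest log2 difference was 1.17, for Nlrc5 under quantile normalization, and the highest adjusted p was 7.74e-04 (limma, Tap1, quantile normalization). Counts over all genes moved: 4507 were higher and 4522 lower with median-of-ratios scaling, and 3908 and 4825 under quantile normalization, where 7727 and 2130 were called on the deposited scale. With median-of-ratios scaling Pdia3 turned to -0.0547, Psmb1 to -0.276 and Psmb6 to -0.307 (limma, adjusted p = 0.646, 0.0259 and 0.0171), Psma5 at 0.12 and H2-T23 were no longer called, and Psmb5 was called lower. The cause was not tested. The replicate numbers in the titles were not taken as pairs, since same-numbered libraries deviated together with correlations of 0.0292, -0.156, -0.110, -0.255 and 0.149. With a replicate block the 10 genes kept their calls, 7319 genes were higher and 1953 lower, and Psmb6 lost its call (limma, adjusted p = 0.0818). The subunit ratios stayed at 3.38 (Psmb8), 2.48 (Psmb9) and 3.53 (Psmb10) with an exact sign-flip p of 0.0625, the smallest that 5 pairs allow. Leaving out single libraries left the ratio of heavy chains to B2m without a call. Where a filter removed a gene the alternative could not be fitted, in 15 combinations among 32 named genes. Low depth limits Nlrc5, Tap1 and Psmb9 in sham.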

Other observations

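The TGACG and ATTGG pair at the spacing of H2-K1, H2-D1 and B2m was found before 27 genes, 20 of them tested. Of these, 13 were called higher and 2 lower, where 58.5% of all genes tested were higher. The 13 include H2-K1, H2-D1 and B2m, from which the spacing was taken, so the count is no evidence of an excess. Besides the class I genes H2-K1, H2-D1, B2m and H2-M3 the called genes with a doubling were Calu, at 18.6 FPKM in sham and 42.8 in UUO, Nrarp, at 1.78 and 6.56, and Trim26, at 2.52 and 7.21. Ghitm, a mitochondrial membrane protein gene, had the same letters and fell from 193 to 93.6 FPKM. This search was made after the sequences had been read, and which of these stretches are bound was not tested.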
